A study of Mus musculus with 19 samples.

Results

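The nuclear receptors, the coactivators that carry the name nuclear receptor coactivator (NCOA) and the subunits of the Mediator complex were followed in FDCPmix cells after tamoxifen. FDCPmix is a mouse cell line of blood progenitors whose growth depends on interleukin-3. Members were all genes of the array whose single symbol begins with one of the naming roots of these families. The rule found 59 of 9834 named genes: 33 nuclear receptors, 7 NCOA genes, 17 Mediator subunits and 2 genes, Esrp1 and Esrp2, that share the root Esr but code for epithelial splicing regulators. The Mediator subunits Med1, Med12, Med17 and Med23 and the receptors Esrrg and Nr1h2 were not analysed here.

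Each of 19 two-colour arrays set the RNA of treated FDCPmix cells, its own RNA, against a reference RNA. The 5 groups were treated cells with no stated time against non-treated cells (4 arrays), and treated cells at 3 h, 7 h and 12 h (4 arrays each) and 23 h (3 arrays: replicates 1, 3 and 4) against treated cells at 0 h. All own RNAs thus came from treated cells, and the time course shares 1 kind of reference, itself labelled treated. Replicates 1 and 2 carried the own RNA in the dye Cy5 and replicates 3 and 4 in Cy3. The sample titles also carry the words ES cell line, and the protocols speak of organs and control animals; neither is explained, and no genotype, transgene or tamoxifen dose is given. Nothing says whether replicates came from separate cultures, so the p-values measure the spread between these arrays, which may be technical. The reference was never hybridised against itself, so its own spread is not in any test.

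Nuclear receptors are transcription factors, many of which are switched by a small lipid-soluble ligand such as a steroid, a retinoid or a fatty acid. A bound agonist lets the receptor recruit coactivators, among them the p160 proteins Ncoa1, Ncoa2 and Ncoa3, which bring histone acetyltransferases, and Mediator, which links the receptor to RNA polymerase II. Tamoxifen is a selective modulator that binds the oestrogen receptors Esr1 and Esr2 and, through its active metabolites, acts as antagonist or agonist according to tissue. In blood progenitors, retinoid receptors are known for a role in granulocyte formation and the glucocorticoid receptor for one in stress erythropoiesis.

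The values are log ratios read as log2 of own RNA over reference, centred on the median of each array. Base and direction are inferred, so higher and lower hold under that reading. A ratio gives no level, so whether a gene was expressed, or whether the cells carried the markers of the named line, could not be read from these files. In bulk RNA, a change in the cells present and a change of RNA per cell cannot be told apart. The SD over all probes was 0.619 to 0.642 on the treated arrays without a stated time and 0.235 to 0.360 on the others, and the arrays were weighted for this spread. The arrays 7 h replicate 4 and 23 h replicate 3 stood apart from the rest. On 7 h replicate 4 the repeated extreme value, 16.291, had the sign of the opposite dye, unlike the pattern on the other 18 arrays. On 23 h replicate 3 the deposited median was 0.233 and the values ran against its group. Values are over all arrays unless stated otherwise, and many are also given without both arrays. The doubt about 23 h replicate 3 rests partly on its values. Leaving it out or changing its sign thus raises agreement at 23 h by construction. The plot of both sets of values holds every member.

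No member differed from its reference in any group at an adjusted p under 0.05 (limma, Benjamini-Hochberg over all features). In the treated arrays without a stated time, 0 of 59 members were called, against 0.0126% of all 15915 features. At 3 h the count was 0 of 59, against 0.0186% of features, and at 7 h 0 of 59, against 0%. At 12 h it was 0 of 59, against 0.186%, and at 23 h 0 of 59, against 0%. The direct contrast of 23 h minus 3 h called 0 of 59 members and 0% of features, and the F test for a difference at any time called 0 of 59 and 0.0312%. The arrays therefore called almost nothing among all features either, and the members were not set apart by having no call.

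At an unadjusted p under 0.05 the members also lay near the background. In the treated arrays 2 of 59 passed (3.39%), against 6.87% of features. At 3 h 7 passed (11.9%), against 12% of features, and at 7 h 4 passed (6.78%), against 9.52%. At 12 h the count was 8 (13.6%), against 12.4%, and at 23 h it was 2 (3.39%), against 3.07%. For 23 h minus 3 h 5 passed (8.47%), against 5.2%, and in the F test 8 passed (13.6%), against 11.9%. The share of members with every array of a group on one side of 0 was 20.3% in the treated arrays (9 above and 3 below), against 14.1% of features. It was 23.7% at 3 h (8 above and 6 below), against 21.7%, and 15.3% at 7 h (3 above and 6 below), against 12.6%. It was 15.5% at 12 h (5 above and 4 below), against 14.5%, and 13.6% at 23 h (4 above and 4 below), against 19.4%. The plot of shares shows both measures.

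**Figure D1:**
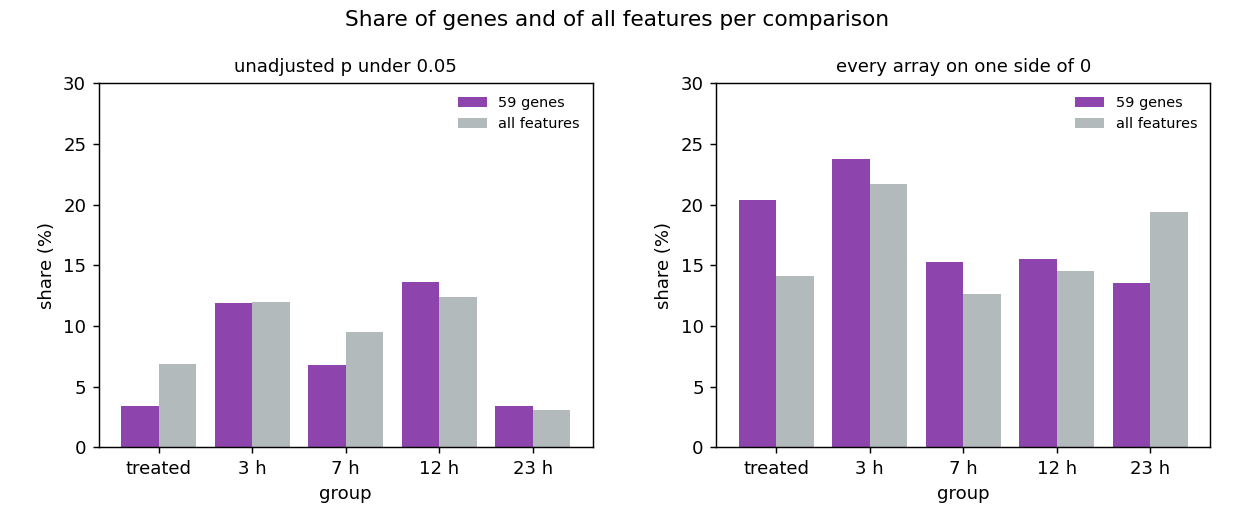
Share, in percent, of the 59 genes (purple) and of all features (grey) that had an unadjusted p under 0.05 (left) or every array of the group on one side of 0 (right), for each of 5 groups. The shares of the genes lie between 3.39% and 13.6% on the left and between 13.6% and 23.7% on the right, on either side of the grey bars.

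As a group the members stayed close to their references. Their median log2 ratio was 0.017 in the treated arrays, 0.028 at 3 h, -0.028 at 7 h, -0.021 at 12 h and 0.027 at 23 h, where the medians of all features were 0.0098, -0.00055, -0.0014, 0.0018 and 0.00072. Of the 59, 31 lay above 0 in the treated arrays, 34 at 3 h, 19 at 7 h, 27 at 12 h and 31 at 23 h, against 52.3%, 49.8%, 49.5%, 50.8% and 50.3% of all features. The counts were 27 at 7 h and 36 at 23 h without both arrays in doubt, so the count at 7 h leaned on the array in doubt. With the arrays that carried the own RNA in Cy3 read the other way, 25 members changed sign in the treated arrays, 17 at 3 h, 21 at 7 h, 13 at 12 h and 26 at 23 h. The direction of many members thus depends on that reading. The 95% interval lay within 0.5 of 0 on the log2 scale for 57 members at 3 h, 56 at 7 h, 57 at 12 h and 54 at 23 h, and for 34 in the treated arrays. Larger shifts than that were thus outside the intervals of most members in the time course. The intervals hold only the spread between arrays of a mean over probes, and cannot say whether a member was expressed. They therefore do not exclude a shift. The map of fitted ratios shows every member.

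**Figure D2:**
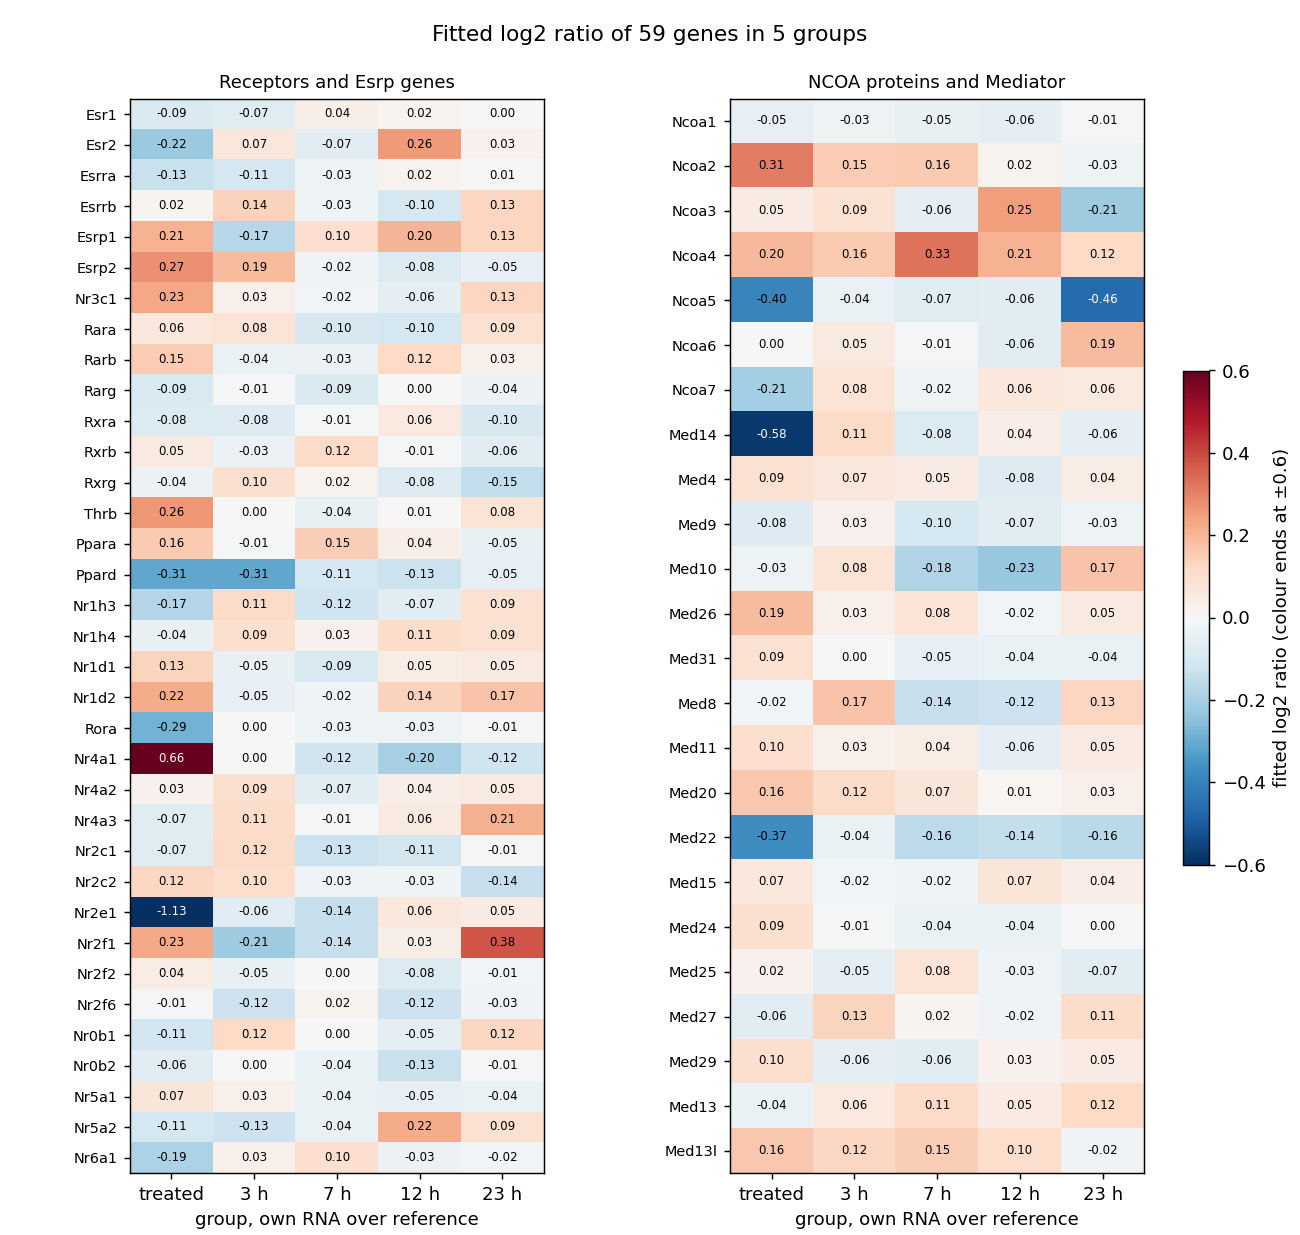
Fitted log2 ratio of own RNA over reference for each of the 59 genes (rows, by role) in each of 5 groups (columns), printed in each cell and coloured from blue (below 0) to red (above 0). Most cells of the time course lie within 0.2 of 0, and the widest values, such as -1.13 for Nr2e1 and 0.66 for Nr4a1, are in the treated column, where arrays were most spread.

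The receptors that bind tamoxifen come first. Esr1, oestrogen receptor alpha (chr10:4611989-5005633 in the mouse build GRCm38.p6), was measured by 4 probes. In the treated arrays it stood at -0.18, -0.34, 0.18 and -0.045 on replicates 1 to 4. The fit gave -0.086 (SE 0.123, n = 4, 95% interval -0.35 to 0.18). These arrays fell on both sides of 0. The fitted ratio was -0.072 at 3 h (SE 0.053, interval -0.18 to 0.041), 0.037 at 7 h (SE 0.056, interval -0.082 to 0.16), 0.020 at 12 h (SE 0.048, interval -0.082 to 0.12) and -0.0030 at 23 h (SE 0.072, interval -0.16 to 0.15). No time gave a difference larger than the spread of the arrays, and over all arrays each interval of the time course lay within 0.2 of 0. The intervals hold the spread between arrays of a mean over 4 probes, which ran from -0.57 to -0.053 on 3 h replicate 3. They cannot say whether Esr1 was expressed, so they do not exclude a shift. Esr1 without both arrays in doubt was at 0.038 at 7 h (interval -0.092 to 0.17) and at 0.058 at 23 h (interval -0.13 to 0.24), which reaches past 0.2.

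Esr2, oestrogen receptor beta, stood at -0.086, 0.28, 0.46 and 0.38 on the 12 h arrays, so that 3 of 4 were above 0. The fit gave 0.26 (SE 0.096, n = 4, adjusted p = 0.276). Under the opposite reading of the Cy3 arrays the value was -0.062, so its direction depends on that reading. In the other groups Esr2 lay between -0.22 in the treated arrays and 0.069 at 3 h, with arrays on both sides of 0 in each. Its values were -0.025 at 7 h and 0.096 at 23 h without both arrays in doubt. The oestrogen-related receptors are orphan relatives best known for mitochondrial and energy genes (Esrra) and for pluripotency (Esrrb). Esrra was below 0 on every 3 h array, at -0.14, -0.23, -0.048 and -0.050 (fit -0.11, SE 0.068, adjusted p = 0.565). Elsewhere its fitted values ran from -0.13 to 0.021, and Esrrb ran from -0.10 at 12 h to 0.14 at 3 h, where it had 0.38 on 1 array and values between -0.013 and 0.035 on the others. Esrra was at -0.086 at 7 h and 0.045 at 23 h without both arrays in doubt, and Esrrb at 0.054 and 0.062.

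Esrp1 is no receptor but an RNA-binding protein of epithelial splicing, and it gave one of the smaller p-values among the members. It stood at -0.19, -0.30, -0.097 and -0.16 at 3 h, below 0 on every array (fit -0.17, SE 0.069, adjusted p = 0.361). At 12 h it stood at 0.12, 0.34, 0.15 and 0.058, above 0 on every array (fit 0.20, SE 0.063, adjusted p = 0.192). The 3 h and 12 h arrays did not overlap, but neither group passed the test, and 12 h against 3 h was not tested.

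The promoters of 3 members, Ncoa4, Ppard and Nr5a2, are shown because these had the smallest adjusted p at 7 h, 3 h and 12 h. Each spans 250 bases before to 50 after a start site in RefSeq on GRCm38.p6. Capitals mark AGGTCA, the half-site to which many nuclear receptors bind, on either strand, where TGACCT is AGGTCA on the other strand.
Ncoa4, chr14:32165539-32165838, plus strand: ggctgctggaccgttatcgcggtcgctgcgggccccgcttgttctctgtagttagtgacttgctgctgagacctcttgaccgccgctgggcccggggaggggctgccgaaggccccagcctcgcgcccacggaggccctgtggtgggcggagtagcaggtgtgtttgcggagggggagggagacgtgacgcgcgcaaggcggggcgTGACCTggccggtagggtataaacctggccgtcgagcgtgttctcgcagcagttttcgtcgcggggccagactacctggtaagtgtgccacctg
Ppard, chr17:28232504-28232803, plus strand: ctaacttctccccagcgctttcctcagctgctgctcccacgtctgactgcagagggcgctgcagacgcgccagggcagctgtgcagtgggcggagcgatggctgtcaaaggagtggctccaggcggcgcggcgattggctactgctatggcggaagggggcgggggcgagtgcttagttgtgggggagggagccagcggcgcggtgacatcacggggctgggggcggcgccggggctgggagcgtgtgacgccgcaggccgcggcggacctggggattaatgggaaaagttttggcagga
Nr5a2, chr1:136960399-136960698, minus strand: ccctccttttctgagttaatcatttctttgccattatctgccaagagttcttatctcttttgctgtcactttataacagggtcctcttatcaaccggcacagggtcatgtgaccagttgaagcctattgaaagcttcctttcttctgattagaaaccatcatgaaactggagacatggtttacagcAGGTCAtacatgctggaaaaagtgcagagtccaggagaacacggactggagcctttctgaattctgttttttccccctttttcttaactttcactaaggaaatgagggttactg
The Ncoa4 promoter held TGACCT at position -44 from the start, and the Nr5a2 promoter held AGGTCA at -64. The Ppard window held neither. The other 2 listed starts of Ncoa4 and the other start of Nr5a2 held none. Of 71 promoters of 51 matched members, 16 held the half-site (22.5%), against 16.3% of all 32851 promoters of this length. The palindromic oestrogen response element, GGTCA and TGACC with any 3 bases between them, was in 0 of 71, against 0.07% of all. The DR1 element, AGGTCA repeated after any 1 base, was in 0 of 71, against 0.0396%. The element of the NR4A receptors, AAAGGTCA, which contains the half-site, was in 3 of 71 (4.23%), against 1.51%. A match of letters is not a binding site, and no binding was measured.

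The glucocorticoid receptor, Nr3c1, binds the adrenal glucocorticoid hormones and dexamethasone. It stood at 0.20, 0.10, 0.57 and 0.10 in the treated arrays, all above 0 (fit 0.23, SE 0.202, adjusted p = 0.972). The treated value was -0.11 with the Cy3 arrays read the other way, and the 7 h value -0.32 (adjusted p = 0.240). In the time course its fitted value ran from -0.057 at 12 h to 0.13 at 23 h, which was 0.050 without both arrays in doubt. Its 7 h arrays split by dye, at -0.32 and -0.20 in Cy5 and 0.43 and 0.36 in Cy3. The retinoic acid receptors Rara, Rarb and Rarg pair with Rxra, Rxrb and Rxrg, the partners of many other receptors as well. Of these 6 genes, 2 lay above 0 at 3 h and 4 below, and their fitted values in the 5 groups all lay between -0.15 (Rxrg at 23 h) and 0.15 (Rarb in the treated arrays). Rara, the alpha receptor known from promyelocytic leukaemia, stood at -0.16, -0.069, -0.042 and -0.044 at 12 h, below 0 on every array (fit -0.10, SE 0.079, adjusted p = 0.657). Rxra stood at -0.091, -0.081, -0.063 and -0.086 at 3 h (fit -0.078, SE 0.063, adjusted p = 0.654). Over all arrays both stayed within 0.11 of 0 in every group, but without both arrays in doubt Rxra was at -0.18 at 23 h (adjusted p = 0.820). The thyroid hormone receptor Thrb lay between -0.043 and 0.084 in the time course and at 0.26 in the treated arrays (adjusted p = 0.872), and at 23 h it was at 0.15 without both arrays in doubt.

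Ppard, the fatty acid receptor PPAR-delta (chr17:28232754-28301469), was the lowest member at 3 h. It stood at -0.36, -0.37, -0.22 and -0.31 on the 4 arrays, which lay close together and all below 0. The fit gave -0.31 (SE 0.078, n = 4, adjusted p = 0.184), which is not past the threshold. Without both arrays in doubt it was -0.31 (adjusted p = 0.0798). Neither is a 3 h array, but both enter the shared spread, so the smaller p is no separate support. With the sign of these 2 arrays changed it passed, at -0.31 (SE 0.063, adjusted p = 0.0474, against 0.416% of features called). Under the opposite reading of the Cy3 arrays it was -0.042 (adjusted p = 0.984). Ppard was also below 0 on every 12 h array, at -0.10, -0.021, -0.31 and -0.26 (fit -0.13, SE 0.071, adjusted p = 0.485), and at -0.43, -0.16, 0.014 and -0.62 in the treated arrays (fit -0.31, SE 0.181, adjusted p = 0.855). Of the other lipid and bile acid receptors, Ppara lay between -0.045 and 0.16, the oxysterol receptor Nr1h3 between -0.17 and 0.11 and the bile acid receptor Nr1h4 between -0.042 and 0.11.

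The circadian repressors Nr1d1 and Nr1d2, the REV-ERB receptors, and Rora, which competes for the same sites, were not called in any group. Nr1d1 lay between -0.090 at 7 h, or -0.033 without both arrays in doubt, and 0.13 in the treated arrays. Its 2 probes stood on opposite sides of 0 at 12 h, at 0.32 and -0.21. Nr1d2 stood at 0.26, 0.28, 0.033 and 0.31 in the treated arrays (fit 0.22, SE 0.161, adjusted p = 0.930) and reached 0.14 at 12 h (SE 0.063, adjusted p = 0.385). At 23 h it stood at 0.35, -0.17 and 0.25 on replicates 1, 3 and 4 (fit 0.17), where only the array in doubt was below 0. Without both arrays in doubt the 23 h value was 0.30 (adjusted p = 0.389), and without replicate 1 it was 0.011. Rora lay within 0.033 of 0 in the time course. In the treated arrays it stood at -1.20, -0.017, -0.14 and 0.19 (fit -0.29, SE 0.169, adjusted p = 0.867), where the lowest array rested on 1 of its 3 probes, at -3.37.

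The NR4A receptors are immediate early genes, orphan receptors that many stimuli switch on within hours. Nr4a1, also called Nur77, had the highest fitted value of any member in the treated arrays. It stood at 0.46, 0.80, 0.26 and 1.08 there, above 0 on all 4 (fit 0.66, SE 0.276, n = 4, adjusted p = 0.668). Equal array weights, under which all groups share one error, gave 0.65 (SE 0.140, adjusted p = 0.0205) and made Nr4a1 the 1 member of 59 called, against 4.76% of features. Its value was -0.058 when the Cy3 arrays were read with the opposite sign. In the time course Nr4a1 stood between -0.20 at 12 h, where replicate 1 had no value and the others stood at -0.46, 0.30 and -0.0010, and -0.0015 at 3 h, and without both arrays in doubt it was at -0.17 at 7 h and -0.057 at 23 h. Without 12 h replicate 2 the 12 h value was 0.21, so its direction there rests on that array. Nr4a2 (Nurr1) lay between -0.065 and 0.094 in the 5 groups, and Nr4a3 between -0.071 and 0.21. Without both arrays in doubt the 23 h value of Nr4a3 was 0.32.

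Among the NR2 orphan receptors, Nr2c2 (TR4) was measured by 3 probes. It stood at 0.17, 0.096, 0.041 and 0.089 at 3 h, all above 0 (fit 0.10, SE 0.056, adjusted p = 0.475), and at -0.12, -0.043 and -0.19 at 23 h, all below 0 (fit -0.14, SE 0.077, adjusted p = 1, and -0.16 without both arrays in doubt). The 2 times did not overlap, and the contrast of 23 h minus 3 h was -0.24 (adjusted p = 0.950). Nr2f1 (COUP-TFI) stood at 0.42, -0.55 and 0.73 on 23 h replicates 1, 3 and 4, with the array in doubt opposite to the others. The fit gave 0.38 (SE 0.176, n = 3, adjusted p = 1), and without both arrays in doubt 0.58 (adjusted p = 0.353). Without replicate 4 the 23 h value was -0.065, so the direction rests on that array. The widest member was Nr2e1 (Tlx), a receptor of neural stem cells, at 0.15, 1.37, -4.89 and -0.93 in the treated arrays (fit -1.13, SE 0.639, adjusted p = 0.842). Its 4 arrays spanned both sides of 0.

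Nr5a2, the orphan receptor LRH-1 (chr1:136842562-136960448), gave the smallest p of any member in any group. It stood at 0.17, 0.22, 0.17 and 0.25 at 12 h, a narrow range above 0. The fit gave 0.22 (SE 0.051, n = 4, adjusted p = 0.114). At 7 h it stood at -0.065, -0.025, -0.10 and -0.060, so that the 12 h and 7 h arrays did not overlap, although 7 h alone was at -0.041 (SE 0.059, adjusted p = 0.907), or -0.029 without both arrays in doubt. Without both arrays in doubt the 12 h value was 0.23 (adjusted p = 0.0585). Neither is a 12 h array, but both enter the shared spread, so the smaller p is no separate support. It passed with the sign of those arrays changed, at 0.22 (adjusted p = 0.0445, against 1.24% of features). With the Cy3 arrays changed it was 0.069 (adjusted p = 0.643). The relatives Nr5a1, Nr6a1, Nr0b1 and Nr0b2 lay between -0.19 and 0.12 in every group, and Nr0b1 and Nr0b2 lack a classical DNA-binding domain.

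**Figure D3:**
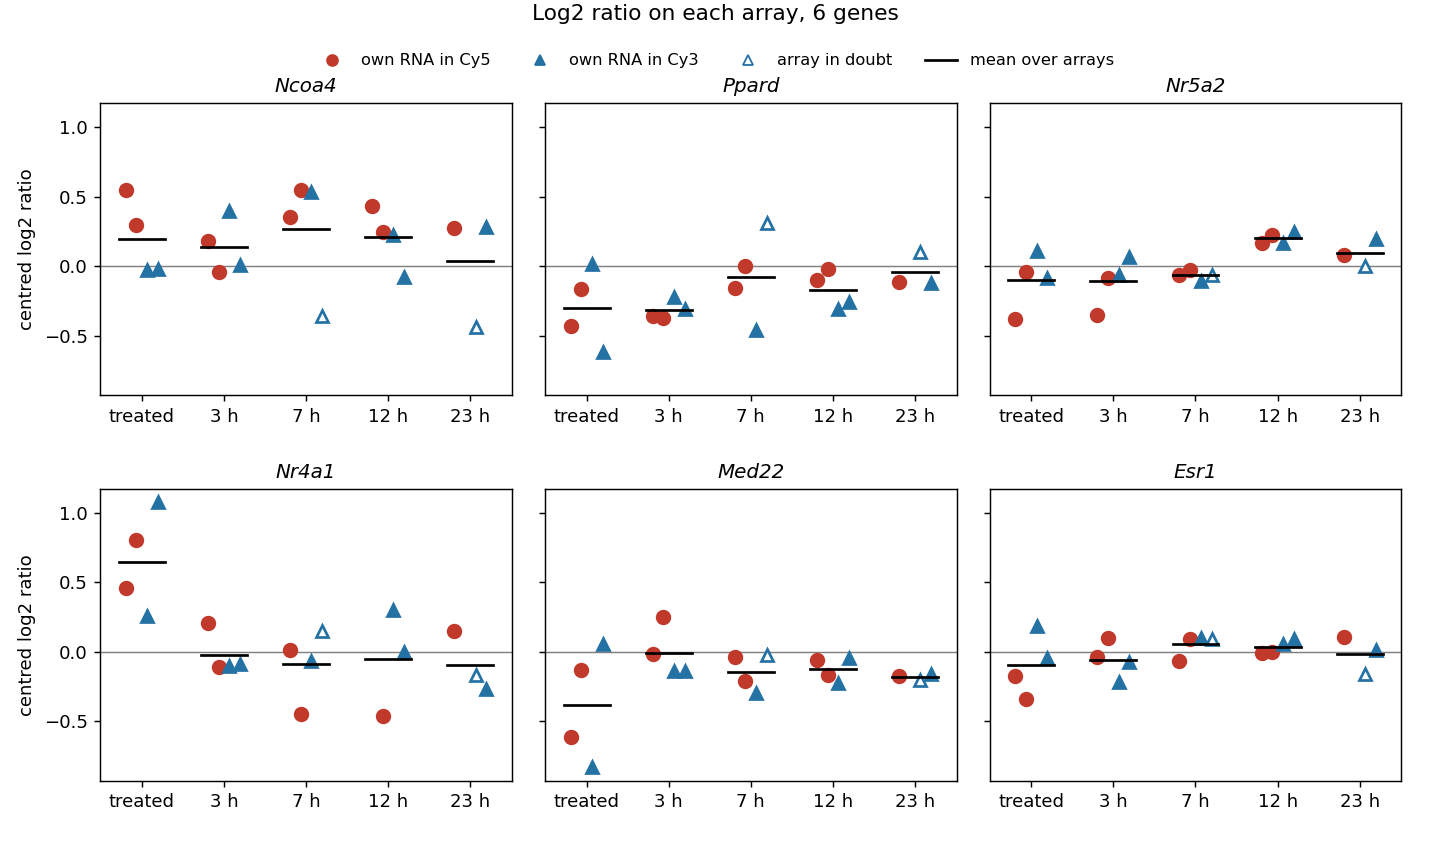
Centred log2 ratio of own RNA over reference on each array (points) for 6 genes in 5 groups, with the mean over arrays as a black bar. Red circles have the own RNA in Cy5, blue triangles in Cy3, and open triangles are the 2 arrays in doubt. Nr5a2 lies above 0 on all 12 h arrays and Ppard below 0 on all 3 h arrays, and for Ncoa4 the open triangles are the lowest points at 7 h and 23 h.

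Of the NCOA genes, Ncoa4 gave the largest fitted ratio at 7 h. Ncoa4 (chr14:32159879-32179855) was first described as a coactivator of the androgen receptor and is the receptor that carries ferritin to autophagy, a step of iron release that matters to red cell precursors. It stood at 0.36, 0.55, 0.53 and -0.36 on 7 h replicates 1 to 4. The 3 arrays that are not in doubt lay together above 0, and the array in doubt lay below. The fit over all 4 gave 0.33 (SE 0.115, adjusted p = 0.402). Without both arrays in doubt it was 0.46 (SE 0.091, n = 3, adjusted p = 0.0283), the 1 member of 59 called there, against 1.19% of features. The F test for any time then gave an adjusted p of 0.0246 for Ncoa4, again 1 of 59, against 1.93% of features. Without 7 h replicate 4 alone the value was 0.45 (adjusted p = 0.0857).

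At the other times 3 of 4, 3 of 4 and 2 of 3 arrays of Ncoa4 lay above 0. It stood at 0.18, -0.041, 0.40 and 0.0080 at 3 h (fit 0.16, SE 0.110, adjusted p = 0.595). The array of 3 h below 0 was replicate 2, which is not in doubt. It stood at 0.43, 0.24, 0.23 and -0.077 at 12 h (fit 0.21, SE 0.0996, adjusted p = 0.414). At 23 h it stood at 0.28, -0.44 and 0.28 on replicates 1, 3 and 4, where the array in doubt was again the one below 0. The fit gave 0.12 (SE 0.149), and 0.28 without both arrays in doubt (adjusted p = 0.742). Without replicate 4 it was -0.080, so the direction at 23 h depends on which array is left out. Over all 7 h arrays its 2 probes gave 0.40 and 0.26. With the sign of both arrays in doubt changed the 7 h value was 0.44 (adjusted p = 0.00396, against 1.98% of features), and with all Cy3 arrays read the other way it was 0.18 (adjusted p = 0.611).

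The p160 coactivators Ncoa1, Ncoa2 and Ncoa3 are the SRC proteins that bind agonist-loaded receptors. Ncoa1 lay between -0.058 and -0.0064 in all 5 groups. Ncoa2, measured by 4 probes, stood at 0.10, 0.22, 0.73 and 0.19 in the treated arrays (fit 0.31, SE 0.152, adjusted p = 0.768) and at 0.26, 0.040, 0.035 and 0.17 at 3 h (fit 0.15, SE 0.065, adjusted p = 0.383). All 8 of these arrays were above 0 as deposited. With the Cy3 arrays read the other way the treated value was -0.16 and the 3 h value 0.046. The treated value was 0.15 without replicate 3, on which 1 probe stood at 2.09 and the other probes with a value at 0.064 and 0.023. The same probe stood at 0.66 and 0.76 on 3 h replicates 1 and 4, where the others lay between -0.17 and 0.16. At 7 h Ncoa2 stood at 0.30 and 0.21 in Cy5 and at -0.044 and -0.0020 in Cy3. Its 7 h fit was 0.16 (SE 0.069, adjusted p = 0.506), and 0.16 without both arrays in doubt. On 7 h replicates 1 and 2 that probe stood at 0.77 and 1.10, and the others between -0.26 and 0.33. Ncoa3 stood at 0.27, 0.31, 0.0030 and 0.45 at 12 h, none below 0 (fit 0.25, SE 0.079, adjusted p = 0.203), and at 0.051, -0.30 and -0.42 at 23 h (fit -0.21, SE 0.118, adjusted p = 1, and -0.18 without both arrays in doubt). Ncoa3 was at 0.12 at 12 h and at 0.23 at 23 h when the Cy3 arrays were read the other way, which turns its 23 h direction. Ncoa5 and Ncoa6 are less studied coactivators, the second a large scaffold that joins a histone methyltransferase complex. Ncoa5 had -1.11, 0.066 and -0.21 at 23 h (fit -0.46, SE 0.172, adjusted p = 1), a value of -0.091 without replicate 1, which carried it, and of -0.66 without both arrays in doubt (adjusted p = 0.332). Ncoa6 stood at 0.21, 0.30 and 0.16 at 23 h, above 0 on every array (fit 0.19, SE 0.102, adjusted p = 1, and 0.185 without both arrays in doubt), but it was -0.042 with the Cy3 arrays read the other way.

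The 17 Mediator subunits were counted by module, the head and middle that touch polymerase, the tail that meets activators, and the kinase module that gates the rest. In all, 10 lay above 0 in the treated arrays, 12 at 3 h, 8 at 7 h, 6 at 12 h and 10 at 23 h. Their medians were 0.065, 0.030, -0.020, -0.032 and 0.042 in the same order. All 6 backbone and middle subunits lay above 0 at 3 h, between 0.0014 and 0.11, and 5 of 6 lay below 0 at 12 h. Of all features 49.8% lay above 0 at 3 h and 50.8% at 12 h, and of the 5 tail subunits 1 lay above 0 at 3 h. The sign of Med14, a backbone subunit, turned at 3 h when replicate 4 was left out. None passed the test.

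Med14, the backbone on which the modules assemble, was the most variable subunit. It stood at -0.0050, -0.38, -1.21 and -0.76 in the treated arrays (fit -0.58, SE 0.561, adjusted p = 0.992) and ranged from -1.20 to 0.84 over the 12 h arrays. Its fitted values in the time course lay between -0.082 and 0.11, and the 3 h value was 0.47 without replicate 2 and -0.33 without replicate 4. With the Cy3 arrays read the other way Med14 was at 0.43 in the treated arrays, 0.43 at 7 h, 0.50 at 12 h (adjusted p = 0.125) and 0.55 at 23 h. Med22, a head subunit, was low in several groups. It stood at -0.61, -0.13, -0.83 and 0.054 in the treated arrays (fit -0.37, SE 0.153, adjusted p = 0.668). It was below 0 on every array at 7 h (-0.039, -0.21, -0.30 and -0.025, fit -0.16, SE 0.070, adjusted p = 0.506), and at 12 h (-0.059, -0.17, -0.23 and -0.046, fit -0.14, SE 0.060, adjusted p = 0.339). At 23 h it stood at -0.18, -0.20 and -0.16 (fit -0.16, SE 0.090, adjusted p = 1). All 11 of these time-course arrays were below 0, both arrays in doubt included. Without those 2 arrays the values were -0.19 at 7 h (adjusted p = 0.349) and -0.17 at 23 h (adjusted p = 0.964). Read with the opposite sign on the Cy3 arrays, its values were 0.024, 0.0055 and 0.0092 at 7 h, 12 h and 23 h.

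Med20, another head subunit, stood at 0.22, 0.24, 0 and 0.034 at 3 h (fit 0.12, SE 0.048, adjusted p = 0.372). The tail subunits Med15 and Med24 had fitted values in the 5 groups between -0.020 and 0.071 for Med15 and between -0.041 and 0.094 for Med24. Med13, which tethers the kinase module, was above 0 on every 3 h array, at 0.039, 0.047, 0.15 and 0.020 (fit 0.060, SE 0.053, adjusted p = 0.693), and its paralogue Med13l on every 12 h array, with a fit of 0.10 (SE 0.068, adjusted p = 0.584). Med13 was at -0.024 at 3 h with the Cy3 arrays read the other way. None of the 17 Mediator genes was told apart from 0.

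Leaving out both arrays in doubt raised the calls among all features. This rise is partly built in, since 23 h replicate 3 was picked partly for running against its group and all groups share the spread. The median SE of the members went from 0.0726 to 0.0689 at 3 h and from 0.066 to 0.062 at 12 h. Neither array in doubt belongs to those times. Called features were then 0.0566% in the treated arrays, 0.335% at 3 h, 1.04% at 12 h, 0.349% at 23 h and 0.0686% for 23 h minus 3 h, and 0 of 59 members were called in each of these. The members at an unadjusted p under 0.05 were then 3 of 59 in the treated arrays, against 7.19% of features, 8 at 3 h, against 11.8%, and 7 at 7 h, against 11.2%. They were 11 at 12 h, against 12.8%, and 6 at 23 h, against 6.66%. With the sign of both arrays changed in place of leaving them out, 1 member was called at 3 h (Ppard), at 7 h (Ncoa4), at 12 h (Nr5a2) and at 23 h. The last was Nr2f1, at 0.72 (SE 0.143, adjusted p = 0.0216), against 0.974% of features. The F test called 3 members under that setting, Ncoa4 (adjusted p = 0.00229), Ppard (adjusted p = 0.0113) and Nr2f1 (adjusted p = 0.0464), against 3.34% of features. Which sign these arrays should carry is not known, and the setting is given beside the others for that reason.

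**Figure D4:**
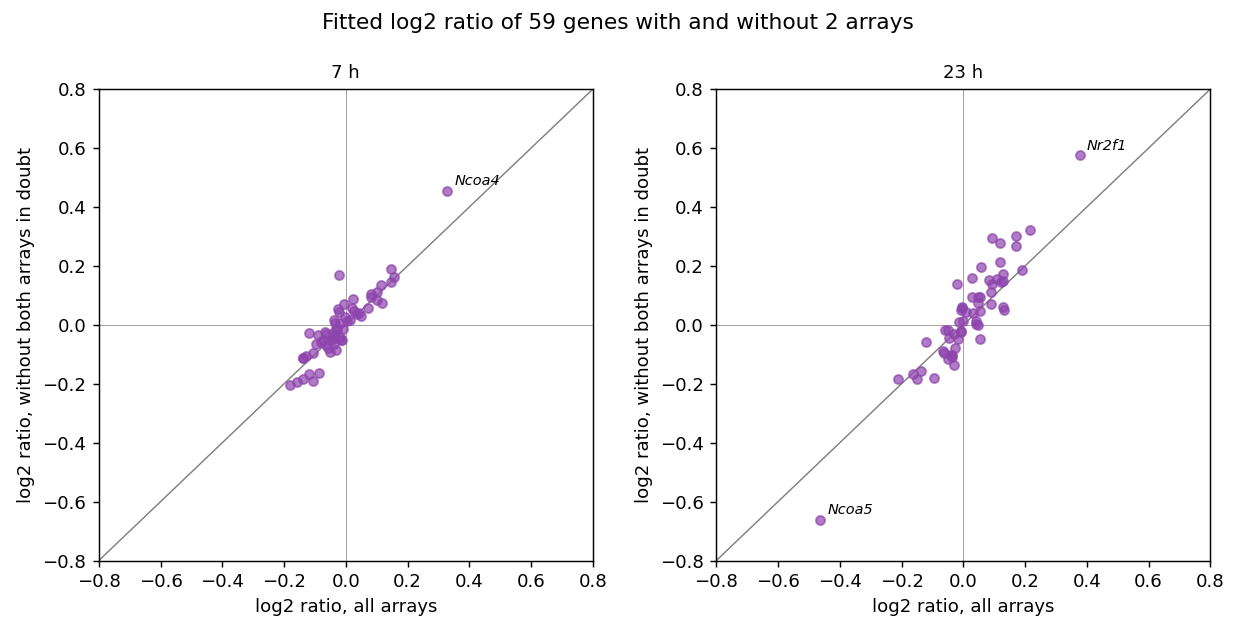
Fitted log2 ratio of each of the 59 genes without both arrays in doubt (vertical) against all arrays (horizontal) at 7 h (left) and 23 h (right), with the line of equal values. Ncoa4 at 7 h stood at 0.46 without those arrays and at 0.33 with all, and at 23 h Nr2f1 and Ncoa5 lay farthest from 0 without those arrays.

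The direction of the deposited ratios was also read the other way for arrays with the own RNA in Cy3. Under that reading 4 members were called at 12 h, against 3.12% of features. Nr0b2, the repressor SHP, stood at -0.29 (SE 0.050, adjusted p = 0.00843), Nr2f2 at -0.17 (adjusted p = 0.0371), Rxra at 0.17 (adjusted p = 0.0430) and Rxrb at 0.28 (adjusted p = 0.0307). The F test called Nr0b2 alone (adjusted p = 0.0353), against 0.624% of features. Under the signs as deposited, the same 12 h values were -0.13 for Nr0b2, -0.082 for Nr2f2, 0.057 for Rxra and -0.013 for Rxrb. On the arrays themselves, Nr0b2 stood at -0.31 and -0.34 in Cy5 but at 0.39 and 0.015 in Cy3, and Rxrb at 0.33 and 0.17 in Cy5 but at -0.50 and -0.23 in Cy3. The dye term of the fit, which takes up a value that follows the dye over all 19 arrays, was called for 0 of 59 members and for 0.323% of features. Its nearest members were Nr2f1 (0.25, adjusted p = 0.108) and Rxrb (0.16, adjusted p = 0.142). Dye and reading were not separated further.

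Genes known to work with or under these receptors were read from lists, 2 of which hold a member each (Rara among oestrogen receptor targets and Rarb among retinoid targets). Of 108 listed partners and targets 66 were tested. Of these 7 had an unadjusted p under 0.05 in the treated arrays, 8 at 3 h, 7 at 7 h, 10 at 12 h and 2 at 23 h, where the shares of all features were 6.87%, 12%, 9.52%, 12.4% and 3.07%. After adjustment 1 was called at 12 h, against 0.186% of features, and 0 in the other 4 groups. It was Acadl, a mitochondrial enzyme of fatty acid oxidation and a PPAR target, at 1.16 (SE 0.164, n = 3, adjusted p = 0.00996), with its 3 arrays between 0.11 and 1.75. The SE rests on the spread shared by all groups, so the limma p-value does not measure the wide spread of these 3 arrays. The medians of the oestrogen receptor target list lay between -0.15 and -0.029 over the 5 groups, with 9 of 18 tested. Its nearest gene was Xbp1, a transcription factor of secretory cells, at -0.46 at 12 h with every array below 0 (SE 0.095, adjusted p = 0.0732). The glucocorticoid target list had medians from -0.18 to -0.040. Its stress gene Ddit4 stood at -0.49 at 3 h (SE 0.124, adjusted p = 0.186) and -0.52 at 7 h (adjusted p = 0.290), where the array in doubt alone was above 0, at 0.44. The list medians lay between -0.089 and 0.064 for retinoid targets, -0.098 and -0.032 for targets of the oxysterol receptors, -0.12 and 0.11 for PPAR targets, and -0.096 and -0.0012 for clock partners. They lay between -0.041 and 0.12 for steroid receptor chaperones, of which 6 of 8 lay above 0 in the treated arrays, 5 at 3 h, 7 at 7 h, 4 at 12 h and 3 at 23 h. They lay between -0.048 and 0.039 for other coregulators, and between -0.12 and 0.017 for receptors outside the rule. Cyclin C and its kinases gave 1 tested gene, between -0.011 and 0.092.

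These genes were also read without both arrays in doubt, where 0 of the 66 were called in the treated arrays, 2 at 3 h, 4 at 7 h, 5 at 12 h and 3 at 23 h, against the shares of all features under that setting given above. At 3 h the calls were Ddit4 at -0.49 (adjusted p = 0.0135) and Bhlhe40, a repressor of the circadian clock, at -0.38 (adjusted p = 0.0141). Over all arrays both had these same fitted values at 3 h and were not called. At 7 h Ddit4 was at -0.71 (adjusted p = 0.0012) and Bhlhe40 at -0.56 (adjusted p = 0.00123), and the others were Dhrs3, an enzyme of retinoid metabolism, at -0.32, and Ltf, which is also on the neutrophil list, at -0.48. At 12 h they were Acadl at 1.15, Xbp1 at -0.47, Ddit4 at -0.41, Dhrs3 at -0.39 and Plin2, a lipid droplet protein, at -0.20. At 23 h, with 2 arrays left, they were Ltf at -1.26, Dhrs3 at -0.56 and the lysosomal protease Ctsd at -0.62. Of these calls 1 was above 0, that of Acadl. The other reading of the Cy3 arrays gave 2 calls, both at 12 h and above 0.

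Markers of other blood cells were read in the same way. Of 46 listed, 34 were tested and 0 were called in any group, where 0% to 0.186% of all features were called. An unadjusted p under 0.05 was reached by 3, 4, 4, 8 and 3 of the 34. The shares of all features were 6.87%, 12%, 9.52%, 12.4% and 3.07%. The 6 neutrophil markers had medians of -0.15 in the treated arrays, -0.15 at 3 h, -0.26 at 7 h, -0.38 at 12 h and -0.48 at 23 h. At 23 h Ltf and Mpo, both proteins of neutrophil granules, stood at 0.97 and 0.88 on the array in doubt, against fitted values of -0.70 and -0.45. Prtn3, another granule protein of the list, was on the other side, at 0.16 with all 3 arrays above 0, and was at 0.13 at 12 h. The neutrophil medians without both arrays in doubt were -0.15 in the treated arrays, -0.14 at 3 h, -0.41 at 7 h, -0.42 at 12 h and -1.02 at 23 h, and 0, 0, 4, 4 and 5 of the 6 genes were called, all below 0. Of all features, 0.0566%, 0.335%, 1.19%, 1.04% and 0.349% were called under that setting, in the same order. The array left out at 23 h was picked partly for running against its group. At 23 h Elane was then at -0.94, Mpo at -0.91, Ltf at -1.26, Camp at -1.20 and Ngp at -1.09. Prtn3 was at 0.098 and was not called. The other calls without those arrays were the macrophage gene Lyz2, at -0.39 at 7 h, -0.70 at 12 h and at -1.002 at 23 h, and the progenitor gene Csf2rb, at -0.38 at 7 h. With the Cy3 arrays read the other way the neutrophil medians were 0.14, 0.025, -0.044, 0.035 and -0.51, and 0 markers were called. The list medians over the 5 groups lay between -0.071 and 0.027 for progenitor markers, -0.11 and 0.11 for erythroid, -0.057 and 0.13 for megakaryocyte, -0.30 and -0.030 for macrophage, -0.31 and 0.066 for lymphoid, -0.18 and 0.094 for pluripotent and -0.16 and -0.0078 for fibroblast markers. Whether these markers have a part in the members' values was not tested.

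Several probes measured 21 members, up to 5 for Ppara. Their fitted values lay on both sides of 0 for 10 of the 21 in the treated arrays, 13 at 3 h, 12 at 7 h, 11 at 12 h and 12 at 23 h. The median range between probes of one member was 0.15 to 0.17 on the log2 scale, the size of the larger fitted values above, and the widest in each group was 1.17 (Rora, treated arrays), 0.429 (Ncoa2, 3 h), 0.881 (Ppara, 7 h), 0.527 (Nr1d1, 12 h) and 0.688 (Med9, 23 h). No single probe of a member was called, and the smallest adjusted p was 0.1.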

How the data were processed

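RNA of 19 two-colour arrays was compared, each own RNA against its reference. Per the labels' protocols, cDNA was made from total RNA and coupled to Cy3 or Cy5 in an indirect step. The deposited value is a log ratio of the channels at each spot, taken here to be log2 because its largest sizes suit a log2 ratio of scanner readings. How the authors set its base, numerator, background correction and normalization is not stated in the sources at hand. Signs were kept as deposited and read as own RNA over reference, and the reading with the Cy3 arrays changed is an alternative. Spot intensities were not used, and precision is limited by the number of arrays.

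Probes came with the platform annotation: of 20205 probes, 13891 had 1 gene symbol, 5 several and 6309 none. An extreme value repeated on 8 to 29 spots of each array (size 16.235 to 17.031) was set to missing. Arrays were centred on their median, and probes of a gene averaged, which gave 16148 features. A feature was tested with values on 3 of 4 arrays, or 2 of 3 at 23 h. All 19 arrays entered 1 fit in limma 3.58.1 (R 4.3.3) with array weights, group means and a dye term, moderated by empirical Bayes, with Benjamini-Hochberg adjustment over all features and a threshold of 0.05. Steps were tested on simulated data. Promoters and positions came from RefSeq (GRCm38.p6), and all 59 members matched a gene ID.

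Named are all members called, the 3 with the smallest p in each comparison, and 20 receptors, coactivators and subunits always given where measured. The members and the lists were chosen with earlier results of these data known. Alternatives were the sign of the Cy3 arrays, no dye term, a replicate block, equal weights, other centring, scaling or normalization, extreme values kept, features with values on every array, both arrays in doubt left out or changed in sign, each group alone, and each array left out. Equal weights with the Cy3 sign changed were added after the data were seen, and so was the look at the dye term.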

Additional observations from a re-analysis of the deposited data

Results flagged for a closer look

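Among 111 named genes and groups of 4 arrays, 7 held an array far from the others by Dixon's criterion, and chance gives about 1 in 20. Esr1 stood at -0.066 on 7 h replicate 1, with the others between 0.090 and 0.099. Esrra stood at 0.32 on 7 h replicate 4, the array in doubt, with the others between -0.099 and -0.078. Esrrb stood at 0.381 on 3 h replicate 1, with the others between -0.013 and 0.035. Ncoa5 stood at 0.158 on 7 h replicate 1, with the others between -0.299 and -0.228. Nr1d2 stood at 0.033 on treated replicate 3, with the others between 0.259 and 0.305. Nr3c1 stood at -0.055 on 3 h replicate 4, with the others between 0.066 and 0.077. Nr4a1 stood at 0.206 on 3 h replicate 1, with the others between -0.109 and -0.088.

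In 3 of 168 pairs of times, every array of one time lay above 0 and every array of the other below. Such pairs were counted for the 28 named members only, not over all features. At a single time, 12.6% (7 h) to 21.7% (3 h) of all features had every array on one side of 0. Whether these 3 pairs stand out from all features thus cannot be said. The total includes the pairs of Nr4a1 with 12 h, which were not compared because 12 h replicate 1 had no value. Esrp1 averaged 0.168 at 12 h and -0.185 at 3 h. Nr5a2 averaged 0.202 at 12 h and -0.0635 at 7 h. These differences were not tested. Nr2c2 averaged -0.118 at 23 h and 0.0998 at 3 h, and the contrast of these times, -0.24, had an adjusted p of 0.950 in limma.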

How the results depend on the processing

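No member was called in the fit described above, and 126 of 137 counts of called members under the alternatives were also 0. Equal array weights called 1 member in the treated arrays. Leaving out both arrays in doubt called 1 at 7 h and 1 in the F test, and changing their sign called 1 each at 3 h, 7 h, 12 h and 23 h and 3 in the F test. Changing the sign of the Cy3 arrays called 4 at 12 h and 1 in the F test. Equal weights with that sign changed called 4 members in the treated arrays, where 1313 of 15915 features were called. These were Nr2e1 at 1.84 (adjusted p = 0.0235) against -1.13 in the fit described above, and Rxra at 0.22 (adjusted p = 0.0414) against -0.082. The others were Rxrb at 0.47 (adjusted p = 0.0196) against 0.054 and Thrb at -0.35 (adjusted p = 0.0279) against 0.26. Of 2751 values of named members under the alternatives, F statistics and single probes included, 2453 kept their sign and stayed uncalled, 289 changed sign and stayed uncalled, 8 passed the threshold with the same sign and 1, Rxra, passed it with the other sign. Nr2e1, Thrb, Rxrb, Nr0b2 and Nr2f2 were named for other reasons and are not among these values. Nor are the F statistics of Ncoa4 and Nr2f1. The cause of these changes was not tested. Counts of all called features moved more. With the Cy3 sign changed they were 31 for the treated arrays, 0 at 3 h, 1 at 7 h, 502 at 12 h, 2 at 23 h, 1 for 23 h minus 3 h and 100 in the F test. Without a dye term there were 10 at 3 h. Equal weights gave 758 for the treated arrays, 0 at 3 h, 3 at 12 h and 0 in the F test, and with the Cy3 sign changed too 1313, 0, 3 and 0. Without centring there were 4 for the treated arrays, 6 at 3 h and 16 in the F test. Scaling the arrays to one spread gave 2 in the F test, quantile normalization 1 at 7 h, and keeping the extreme values 1 in the F test. Features with a value on every array gave 1 for the treated arrays and 8 at 3 h. Without both arrays in doubt there were 9 for the treated arrays, 54 at 3 h, 192 at 7 h, 168 at 12 h, 56 at 23 h, 11 for 23 h minus 3 h and 308 in the F test. With their sign changed the counts were 9, 67, 319, 200, 157, 35 and 535 in the same order. Each group fitted alone gave 0 for the treated arrays, 0 at 3 h and 3 at 12 h. Leaving out 1 array at a time gave 13 to 49 for the treated arrays, 0 to 1 at 3 h, 1 to 109 at 7 h (109 without replicate 4), 11 to 62 at 12 h, 0 to 25 at 23 h (25 without replicate 3), 0 to 1 for 23 h minus 3 h and 1 to 132 in the F test (132 without 7 h replicate 4).

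The replicate numbers showed no clear pairing of the arrays. Of 36 same-numbered pairs, 4 correlated above 0.1 (range -0.108 to 0.194). Their median was 0.025, against 0.048 for other pairs of the same dye. For 9 of 19 arrays the best match in another group had their own number. Whether the numbers stand for shared cultures or batches was not tested. With a replicate block 1 feature was called at 3 h, 13 at 12 h and 1 in the F test, and 0 members in any comparison. The deposited ratios hold no signal over background, so dim spots could not be told from bright ones.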
